A study of Rattus norvegicus with 4 samples.

Results

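Footpad skin collected on day 9 was compared with footpad skin collected on day 6, across all genes, in a rat model of fractionated skin irradiation. The comparison used 2 of the 4 samples of the series and was made gene by gene: 17064 of the 18957 genes in the series were listed in at least 1 of these libraries and 13409 in both. The animals were Sprague Dawley rats, an outbred stock, and the tissue was footpad skin of the hindlimb. By the protocol a 9 MeV electron beam gave the footpad 10 Gy at each of 4 sessions (days 1, 2, 4 and 5, at 500 cGy/min), so both collections followed the last irradiation. The per-sample notes instead name a single irradiation day for each sample, day 4 for the day 6 sample and day 5 for the day 9 sample, and the groups here follow the collection days in the titles. Days 0 and 3, before the first session and midway through the course, are given beside many of the values as levels. Where they are left out, a gene higher on day 9 than on day 6 may still lie below its day 0 count. The labels name no genotype, agent, age, sex, animal number, batch or hour of collection. With 1 library for each day, no spread between animals could be measured and nothing was tested: every interval is a 95% interval for counting error between 2 libraries, and copies made by PCR without molecular identifiers are not independent molecules.

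The assay was digital gene expression, which counts transcripts by tags of 21 bases, each starting at a CATG site; for 79.6% of the genes with 50 counts the main tag was that of the site nearest the 3′ end. A gene's count is the number of copies of its tags. The day 6 library held 1967902 gene counts over 14972 genes, and the day 9 library 1952921 over 15501. A ratio is taken between counts scaled by TMM (a factor that equalises the bulk of genes). A gene passed the size rule, and is called higher or lower below, if it differed at least 2-fold with an interval that excluded 1 and its larger count was 50 or more. Of the 5127 genes with 50 counts, 515 (10.0%) were higher on day 9, 224 (4.37%) were lower, and 739 (14.4%) passed in either direction. These shares are the background for each list below. The floor asks for 50 counts in the higher library only, so a gene scarce in the other library enters through its difference. This holds for the background and for each list. The remainder was quiet: 66.7% of the 5127 genes lay within 1.5-fold, and their median log2 ratio was -0.02.

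As background, the epidermis is renewed by basal keratinocytes that divide, leave the basal layer and build a cornified envelope. Keratinocytes at a wound or in inflamed skin switch on keratins 6, 16 and 17, small cornified envelope proteins and secreted defence proteins. Ionising radiation activates p53, which holds the cell cycle through Cdkn1a and can start cell death through Bbc3.

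Of the 40 lists with a median, that of keratins and alarm proteins of stressed epidermis was the furthest above 0 after skeletal muscle. Of 13 list members with 50 counts, 10 were higher on day 9 and 0 were lower, against 10.0% higher and 4.37% lower over all genes, and the list's median log2 ratio was 2.73. Of the 10, Krt16, S100a8, S100a9 and Stfa3 reached 50 counts through day 9 alone. Summed over the list, counts were 9343 on day 6 and 82574 on day 9, which was 0.475% (0.465 to 0.484, exact binomial) and 4.23% (4.20 to 4.26) of each library. The most abundant tags of the members that carried this difference, and of 1 cytokine, are shown with the anchoring CATG in capitals.
LOC683313: CATGtgatgtctttgcttttc
Krt17: CATGaaagcatccctggaggg
S100a9: CATGtaacatctgcccaacca
Sprr1a: CATGgctcaggattcatctga
Defb4: CATGaaaatgcacaaaacaaa
Il24: CATGggggcagtagatggttg
Each of these 6 tags stood at the first CATG site from the 3′ end. They held 90.9% of the copies of LOC683313 on day 9, 97.3% for Krt17, 96.4% for S100a9, 97.1% for Sprr1a, 92.9% for Defb4 and 97.3% for Il24, so these ratios rested mainly on 1 tag each.

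LOC683313, which the files describe as keratin 6A, a wound keratin, had 432, 1071, 5316 and 66660 counts on days 0, 3, 6 and 9. The day 9 count was 12.8-fold the day 6 count (12.4 to 13.1), and this entry alone was 0.270% of the gene counts on day 6 (0.263 to 0.277) and 3.41% on day 9 (3.39 to 3.44). Keratin 6 genes are near copies of each other, so reads of its paralogs cannot be separated from this entry. Krt17, a keratin of wound edges and appendages, had 499, 246, 262 and 4743 counts and was 18.4-fold higher on day 9 than on day 6 (16.3 to 21.0). Krt16, a partner of keratin 6, was not listed on days 0 and 3, had 37 counts on day 6 and 239 on day 9, and was 6.51-fold higher (4.64 to 9.58). The keratin 6 entry thus stood higher on each successive collection day, while Krt17 was high on day 9 alone.

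S100a8 and S100a9 encode calprotectin, a calcium-binding alarm protein of stressed keratinocytes and of neutrophils. S100a9 had 34, 43, 34 and 891 counts on days 0, 3, 6 and 9, a 26.3-fold difference from day 6 to day 9 (19.0 to 38.8). S100a8 had 39, 17, 10 and 122 counts and was 11.9-fold higher (6.54 to 26.6). S100a9 was level in the first 3 libraries, whereas S100a8 was higher on day 0 than on days 3 and 6, and both were highest on day 9. Both are also in the neutrophil list. Of its defining markers, Cxcr2 had 0 and 6 counts on days 6 and 9, Csf3r had 2 and 0, Ngp was listed in neither, and Mpo and Elane were listed on no day. The other members of that list, which other cells also express, had 0 and 33 counts for Mmp9, 0 and 8 for Lcn2, 3 and 5 for Trem1, and 56 and 63 for Il1r2. The part of neutrophils in the S100a8 and S100a9 counts was not tested.

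Sprr1a, a small proline-rich protein of the cornified envelope, had 739, 307, 160 and 2909 counts and was 18.5-fold higher on day 9 than on day 6 (15.8 to 21.9). Stfa3, a stefin that inhibits cysteine proteases, had 0, 7, 17 and 287 counts and was 16.8-fold higher (10.6 to 30.0). Serpinb2, plasminogen activator inhibitor 2, had 218, 111, 87 and 570 counts and was 6.65-fold higher (5.32 to 8.47). Of these, Sprr1a and Serpinb2 were lowest on day 6 among the 4 libraries, so their day 9 level exceeded that of day 0 by less than that of day 6. Defb4, a beta-defensin, had 15, 112, 551 and 1669 counts and was 3.09-fold higher (2.80 to 3.41), and Serpinb1a, an inhibitor of neutrophil proteases, was 3.29-fold higher. The 3 measured members that did not pass were Cstb, Il1rn and Klk6, with 2176 and 3389, 558 and 781, and 66 and 84 counts on days 6 and 9.

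Cytokines of keratinocytes were mostly too scarce for the rule. Il24, a cytokine of the IL-10 family, was listed on day 9 alone, with 75 counts, at least 25.5-fold above a floor of 3 counts on day 6. None of its tags was seen on day 6 even singly. Il36g, an IL-1 family cytokine made by keratinocytes, had 29, 70, 160 and 393 counts and was 2.50-fold higher on day 9 (2.08 to 3.03). Only 4 members of this list had 50 counts and these 2 were the ones higher. Il1b had 6, 3, 5 and 35 counts, below the count floor, a ratio of 6.58 (2.78 to 23.3). The chemokine Cxcl1 was not listed on day 6 and had 11 counts on day 9. Across the 6 members in the median, all ratios were above 1, with a median log2 ratio of 0.89.

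**Figure D1:**
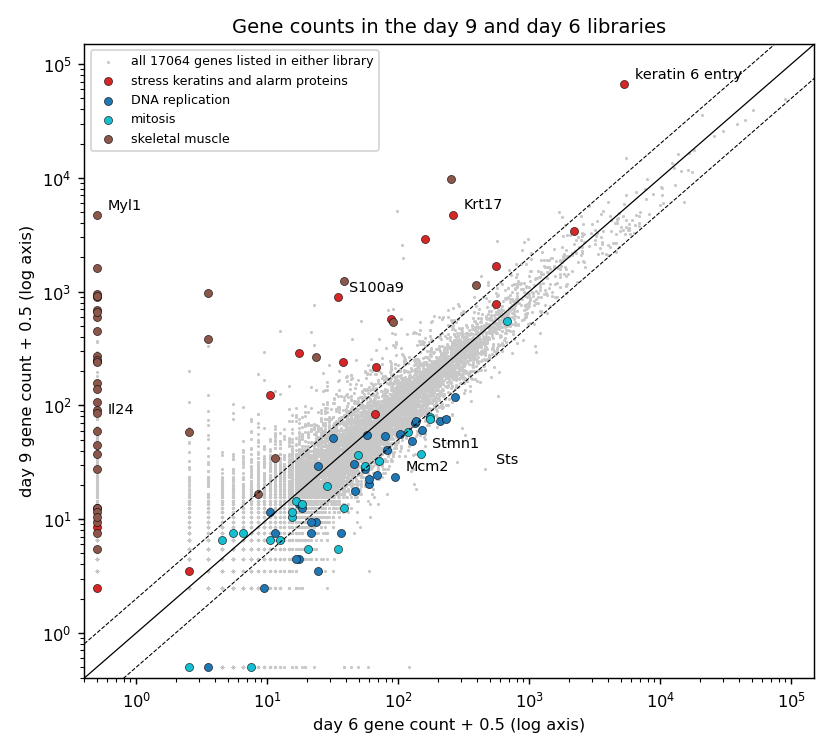
Gene counts on day 9 against day 6, with 0.5 added and both axes logarithmic, for the 17064 genes listed in either library; the solid line marks equal counts and the dashed lines 2-fold. Stress keratins and alarm proteins lie above the diagonal with the keratin 6 entry highest at 66660 counts, replication and mitosis genes lie mostly below it, and muscle genes form the column at 0 on day 6.

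Genes of wound-edge migration and of EGF receptor signalling leaned the same way. Of 10 members with 50 counts, 4 were higher on day 9 and 0 lower, and 17 of the 18 members in the median had a ratio above 1 (median log2 0.95). Fscn1, an actin-bundling protein of cell protrusions, had 161, 222, 95 and 346 counts and was 3.70-fold higher than on day 6 (2.95 to 4.71). Mmp3, stromelysin, had 36, 35, 28 and 57 counts and was 2.06-fold higher (1.30 to 3.39). For both, day 6 was the lowest library and day 9 the highest.

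The junction list gave 4 higher and 0 lower of 14. Gjb2, the gap junction protein connexin 26, had 364, 625, 978 and 2886 counts and was 3.01-fold higher on day 9 (2.80 to 3.24), and its relative Gjb6 was 2.05-fold higher (1.76 to 2.39). Dsg3, a basal desmosomal cadherin, was 2.89-fold higher (1.80 to 4.93) on 23 and 66 counts. Cdh3, P-cadherin, had 80, 19, 33 and 88 counts and was 2.69-fold higher (1.80 to 4.19). The median of the list was near 0 (0.02, 8 of 16 members above 1), so these 4 were not typical of the list.

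Differentiated and basal keratinocyte genes did not share this pattern. Of 18 cornified envelope genes with 50 counts, 1 was higher and 1 lower, and the median log2 ratio was -0.21. Tgm1, the transglutaminase that crosslinks the envelope, had 304, 111, 110 and 224 counts and was 2.07-fold higher (1.65 to 2.63). Krt2, a keratin of upper epidermal layers, had 798, 285, 589 and 195 counts and was 2.96-fold lower (2.52 to 3.50). Krt10, a keratin of the suprabasal layers, had 10006 counts on day 6 and 5777 on day 9, a ratio 1.70-fold lower (1.64 to 1.75) that missed the 2-fold rule. Among 12 basal genes, Plec, a linker of hemidesmosomes, had 818, 404, 238 and 503 counts and was 2.15-fold higher (1.84 to 2.52). Moxd1 was 2.54-fold lower (1.82 to 3.64), and Krt14, the main basal keratin, had 319 and 353 counts. Krt9, the keratin of palm and sole epidermis, had 153, 559, 6 and 40 counts, so the day 6 library was low in it.

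The cell division genes ran in the other direction. Of 17 replication genes with 50 counts, 9 were lower on day 9 and 0 higher, against 4.37% lower over all genes, and 27 of the 30 members in the median had a ratio below 1 (median log2 -1.22). Summed counts over the list were 1809, 1206, 2280 and 1050 on days 0, 3, 6 and 9. The day 6 sum was thus the highest of the 4 and the day 9 sum the lowest. Of 7 mitosis genes, 4 were lower and 0 higher, all 16 members in the median had ratios below 1 (median log2 -0.93), and the summed counts were 1627, 825, 1686 and 1017. In bulk skin, fewer dividing cells and less of these transcripts in each cell cannot be told apart. The main tags of 3 of these genes, shown as examples of the lower group, all stood at the first CATG site and held at least 94.6% of the copies in both libraries.
Mcm2: CATGctccttgtgctgacttt
Dut: CATGcagacttggttattaga
Stmn1: CATGaaaaagaagtgctccag

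Mcm2, a subunit of the replicative helicase, had 56, 53, 93 and 23 counts and was 3.90-fold lower on day 9 than on day 6 (2.49 to 6.56). Its fellow subunit Mcm6 had 140, 85, 152 and 60 counts and was 2.47-fold lower (1.83 to 3.41). Mcm2 on day 9 was at least 2-fold below each other library, which was not so for Mcm6. The polymerase and primase subunits Pold2 and Prim1 were 2.96-fold (2.28 to 3.90) and 2.59-fold (1.59 to 4.51) lower. Among enzymes of nucleotide supply, Dut, which keeps uracil out of DNA, had 110, 95, 206 and 73 counts and was 2.76-fold lower (2.11 to 3.67). Tk1, thymidine kinase, was 2.74-fold lower (1.72 to 4.63), and Rrm1, the large subunit of ribonucleotide reductase, 2.58-fold (1.85 to 3.70). For Dut the day 6 count was the high one, and its day 9 count was closest to that of day 3.

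Stmn1, a microtubule-destabilising protein of dividing cells, had 166, 28, 148 and 37 counts and was 3.88-fold lower (2.72 to 5.79). Cdk1, the mitotic kinase, had 88, 37, 174 and 78 counts and was 2.18-fold lower (1.67 to 2.90), and its partner Cks1b was 2.22-fold lower (1.70 to 2.96). Birc5, survivin, was 2.16-fold lower (1.41 to 3.41). Stmn1 was low on days 3 and 9 and high on days 0 and 6, whereas Cdk1 was high on day 6 alone. Mki67, the proliferation antigen Ki-67, had 31, 10, 55 and 29 counts, 1.85-fold lower (1.17 to 3.03), and missed the rule. DNA repair genes also had 3 lower and 0 higher of 8 (median log2 -0.47): among them, Xrcc6, the Ku70 end-binding protein, was 2.50-fold lower (1.69 to 3.84), and H2afx, the histone marked at breaks, 2.19-fold (1.39 to 3.63).

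Promoters of the division, stress and cytokine lists were searched for the letters of the CCAAT box, the AP-1 motif and the E2F motif. In the 300 bases around the start (250 before to 50 after, RefSeq, GRCr8), the letters CCAAT on either strand were found in 16 of 18 mitosis promoters (88.9%), in 17 of 28 replication promoters (60.7%), in 4 of 11 of the stress keratin and alarm list (36.4%) and in 37.7% of all 27457 promoters. The letters TGANTCA, the AP-1 motif, were found in 3 of the 11 stress promoters (27.3%), in 0 of the 18 mitosis and 0 of the 28 replication promoters, and in 7.33% of all. Of those 3, Sprr1a and Serpinb2 were higher on day 9 and Klk6 did not pass the rule. Krt16, Krt17, S100a8 and Defb4 had no matched promoter. The E2F letters TTTCCCGC were found in 4 of the 28 replication promoters (14.3%), in 0 of the mitosis and stress promoters, and in 1.03% of all. Those 4 were of Mcm3, Mcm5, Mcm7 and Rfc3, none of which passed the size rule. In the cytokine list, 5 of 12 promoters held CCAAT (41.7%), 2 held TGANTCA (16.7%) and 0 held TTTCCCGC. A promoter with CCAAT and a promoter with TGANTCA are given with the matches in capitals. CCAAT, here read on the other strand as ATTGG, is marked in that of Cdk1, and TGANTCA in that of Sprr1a. Cdk1 lies at chr20:19265043-19265342 on the plus strand and Sprr1a at chr2:180752576-180752875 on the minus strand.
Cdk1: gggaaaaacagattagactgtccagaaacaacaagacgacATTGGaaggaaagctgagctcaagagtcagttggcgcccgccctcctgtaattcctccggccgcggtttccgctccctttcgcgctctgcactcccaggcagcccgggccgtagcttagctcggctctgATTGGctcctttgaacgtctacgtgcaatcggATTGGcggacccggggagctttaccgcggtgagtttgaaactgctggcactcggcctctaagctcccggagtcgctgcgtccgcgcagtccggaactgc
Sprr1a: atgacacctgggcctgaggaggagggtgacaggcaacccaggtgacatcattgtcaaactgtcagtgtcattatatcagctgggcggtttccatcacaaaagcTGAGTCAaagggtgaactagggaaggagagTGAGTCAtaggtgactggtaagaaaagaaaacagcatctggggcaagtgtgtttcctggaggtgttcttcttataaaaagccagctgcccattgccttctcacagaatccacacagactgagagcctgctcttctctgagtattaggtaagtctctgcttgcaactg
A match is a description of the letters, and factor binding was not measured.

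**Figure D2:**
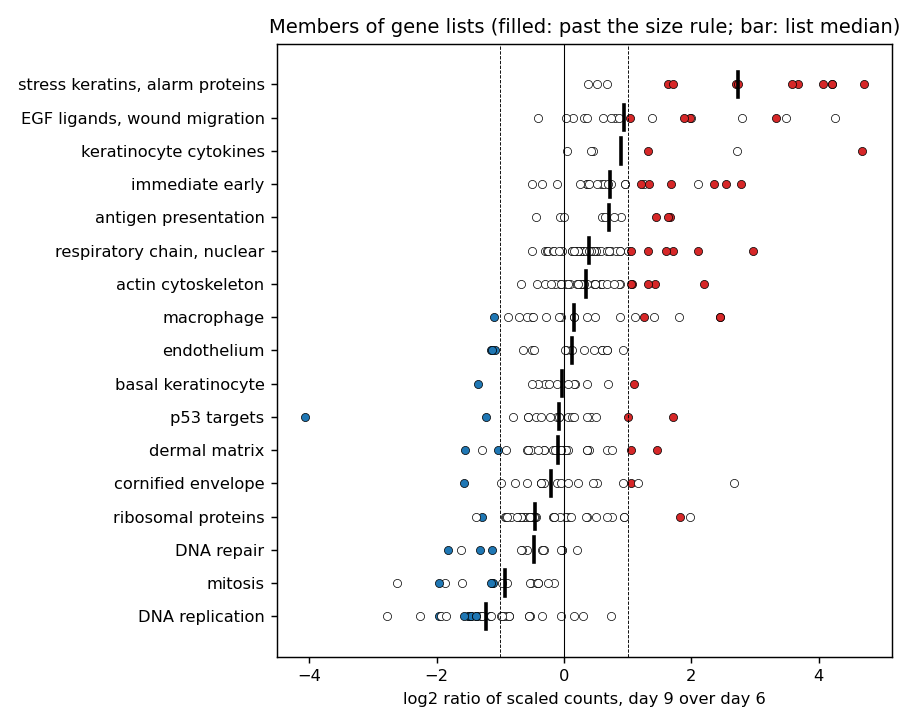
Log2 ratio of scaled counts, day 9 over day 6, for members of 17 gene lists with a mean of at least 10 counts; filled points passed the size rule (red higher, blue lower), black bars are list medians and dashed lines mark 2-fold. The stress keratin and alarm list lies farthest right (median 2.73), and the mitosis and replication lists farthest left (medians -0.93 and -1.22).

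Targets of p53 did not move together. Of 15 with 50 counts, 2 were higher and 2 lower, and the median log2 ratio was -0.08. Ccng1, cyclin G1, had 303, 1885, 1776 and 1831 counts on days 0, 3, 6 and 9, a ratio of 1.05 between day 9 and day 6 (0.984 to 1.12), so its level on the 3 later days was nearly flat. Mdm2, the ubiquitin ligase that limits p53, had 125 and 164 counts on days 6 and 9, a ratio of 1.34 (1.05 to 1.70). Bbc3, the cell death protein PUMA, had 23, 204, 194 and 81 counts and was 2.34-fold lower on day 9 (1.80 to 3.08), a level between those of day 0 and day 6. Plk2, a polo-like kinase, had 0, 71, 59 and 3 counts and was 16.7-fold lower (6.29 to 96.2), so it was present on days 3 and 6 and nearly absent from the other two libraries. The 2 higher genes were Plk3, 3.27-fold (2.46 to 4.45) on 62 and 200 counts, and Ei24, 2.01-fold (1.70 to 2.39) on 207 and 408.

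Cdkn1a, the cell cycle inhibitor p21, had 291, 1197, 1303 and 947 counts, 1.35-fold lower on day 9 than on day 6 (1.24 to 1.47). These counts came from 2 tags 1 base apart (C17T, counted from the first base of CATG), whose second form is shown with that base also in capitals.
Cdkn1a: CATGtattttggtcccTtccc
The form with C had 142, 1100, 0 and 397 copies on days 0, 3, 6 and 9, and the form with T had 118, 0, 1206 and 457. Day 3 held the first form alone, day 6 the second alone, and days 0 and 9 held both. A count of the most abundant tag alone would put day 9 lower by a log2 ratio of -1.37, and the gene count, which sums both tags, is used here.

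Cell death genes gave 4 higher and 1 lower of 10 (median log2 0.24). The necroptosis kinase Ripk3 had 9, 11, 13 and 61 counts and was 4.64-fold higher on day 9 (2.60 to 9.49). Bak1, which permeabilises mitochondria, had 22, 39, 15 and 50 counts and was 3.32-fold higher (1.88 to 6.52). Bcl2l1, which opposes it, had 92, 57, 20 and 55 counts and was 2.76-fold higher (1.65 to 4.94), with a low day 6 and a day 9 count below that of day 0. Ripk3, Bak1 and Bcl2l1 reached 50 counts on day 9 but not on day 6. The lower member was Bbc3, already given, so genes that promote and that oppose death were both among those higher.

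Immediate early and stress transcription genes had 6 higher and 0 lower of 17, and 19 of 22 ratios above 1 (median log2 0.72). Atf3, a stress-induced transcription factor, had 43, 18, 21 and 145 counts and was 6.90-fold higher (4.44 to 11.7). Ier3 was 5.84-fold higher (3.50 to 10.9), and Zfp36, which destabilises cytokine messages, 5.10-fold (2.93 to 10.1). Atf3 and Ier3 stood apart on day 9, whereas Zfp36 had 65, 29, 14 and 72 counts and was low on day 6. Ier5, Jund and Dusp6 were 3.19-fold (2.23 to 4.74), 2.51-fold (1.62 to 4.04) and 2.30-fold (1.80 to 2.98) higher. Fos and Egr1, also of this list, had 43 and 63 and 11 and 17 counts on days 6 and 9. Hour of collection is not in the labels and its part was not tested. Of 8 clock genes with 50 counts, 0 were higher and 0 lower, where 14.4% of all genes passed in either direction. A list of 8 is too short to set apart from that share. The furthest were Tef, 1.55-fold lower (1.18 to 2.07), and Cry2, 1.54-fold lower (1.10 to 2.18).

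Among single genes, a large ratio was that of Ankrd1, a nuclear ankyrin-repeat protein induced by injury and stretch, with 4, 7, 3 and 122 counts and 35.7-fold higher on day 9 (13.9 to 204). Arg1, arginase, had 12, 58, 71 and 383 counts and was 5.47-fold higher (4.26 to 7.19), and Ca2, carbonic anhydrase 2, had 9, 40, 29 and 226 and was 7.83-fold higher (5.38 to 12.1). Fam111a had 0, 4, 11 and 133 counts and was 11.8-fold higher (6.67 to 25.3). All 4 stood at least 2-fold above each other library on day 9. By contrast, Ly6d, with 466, 177, 83 and 686 counts, Rhov, with 160, 36, 14 and 147, and Ifrd1, with 105, 77, 26 and 191, were 8.38-fold, 10.4-fold and 7.37-fold higher but were set apart by a low day 6. Ptp4a2, a phosphatase, had 27, 29, 22 and 341 counts and was 15.5-fold higher (10.3 to 25.6). Its tag at the first site had 4 copies on day 6 and 290 on day 9, and its tag at the next site 18 and 51, so the difference lay mostly in 1 of its tags.

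The lower genes outside division included Sts, steroid sulfatase, an enzyme of barrier lipid processing, with 6, 294, 461 and 27 counts and 16.5-fold lower on day 9 (11.4 to 25.7). Its main tag held 437 of the day 6 copies and 7 of the day 9 copies. Phgdh, which opens the serine synthesis pathway, had 148, 84, 132 and 20 counts and was 6.34-fold lower (4.03 to 10.9). Its main tag is shown with that of Sts, the other gene of this group.
Sts: CATGaccctgtatgaataaat
Phgdh: CATGtttctgaggctttccag
With Phgdh, 3 more of 17 genes of the serine and amino acid supply list were lower: Psat1, the next enzyme of the pathway (2.10-fold, 1.67 to 2.65), and the transporters Slc7a1 (2.13-fold, 1.71 to 2.66) and Slc1a4 (2.12-fold, 1.52 to 3.02). Arg1 was the 1 member higher, and the list's median was above 0 (log2 0.20), so the 4 lower genes did not carry the list.

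Pdcd4, an inhibitor of translation, had 2089, 704, 1126 and 293 counts and was 3.76-fold lower (3.31 to 4.30). Aldh3a1, an aldehyde dehydrogenase, had 304, 355, 307 and 63 counts and was 4.75-fold lower (3.63 to 6.37), and Adh7, an alcohol dehydrogenase, had 105, 85, 278 and 31 and was 8.67-fold lower (6.06 to 13.2). The main tag of Adh7 had 0, 0, 269 and 23 copies, so its counts on days 0 and 3 came from other tags. Serpina3n, an acute-phase protease inhibitor, had 244, 127, 575 and 120 counts and was 4.68-fold lower (3.85 to 5.77), here because day 6 was the high library. Cers5, a ceramide synthase, was 3.48-fold lower (2.41 to 5.24), and Ltbp4, which binds latent TGF-beta, 3.19-fold (2.58 to 4.01). Ddx56, a helicase of ribosome assembly, had 40, 40 and 58 counts on days 0, 3 and 6, was not listed on day 9, and was at least 19.0-fold lower. Nkain3 had 137 and 18 counts on days 6 and 9, 7.29-fold lower, and its main tag lay 1 base from an unassigned tag with 126175 and 48556 copies, so miscopies of that tag cannot be told apart from Nkain3.

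**Figure D3:**
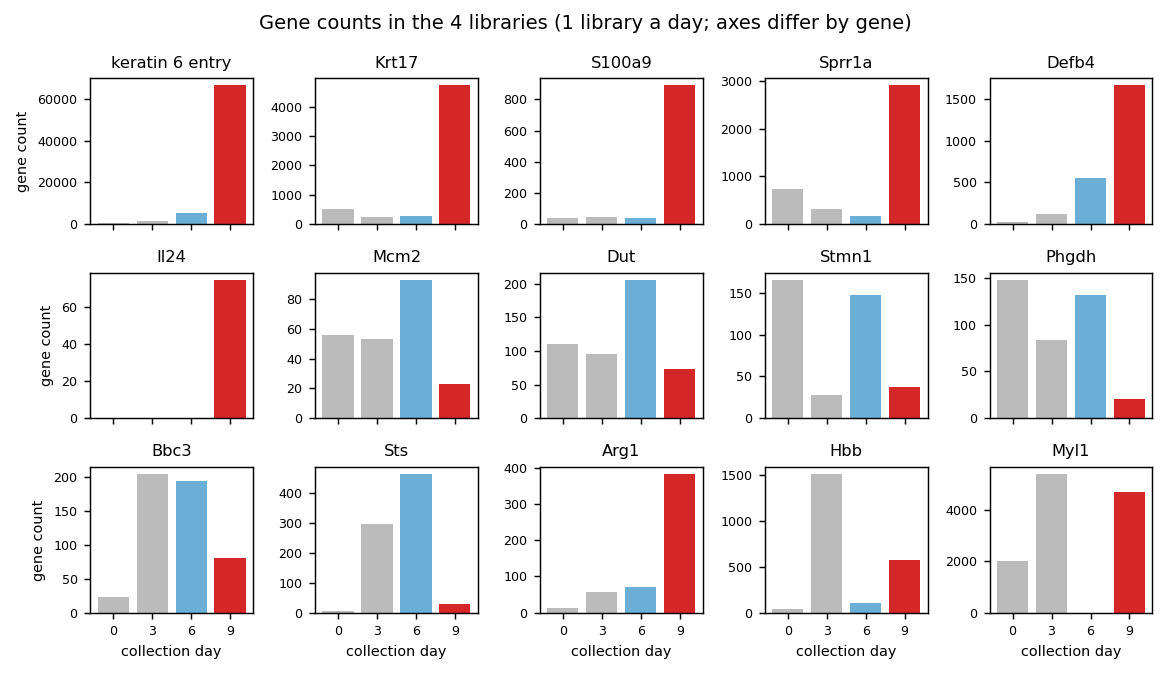
Gene counts of 15 genes in the libraries of days 0, 3, 6 and 9 (bars, 1 library each, axes from 0 that differ by gene; day 6 blue, day 9 red). The keratin 6 entry, Krt17, S100a9, Sprr1a, Defb4, Il24 and Arg1 are highest on day 9, Mcm2, Dut, Phgdh and Sts are lower on day 9 than on day 6, and Myl1 is at 0 on day 6 alone.

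Dermal matrix genes, by contrast, were close in the libraries. Of 24 with 50 counts, 2 were higher and 2 lower (median log2 -0.09). Col1a1, the main fibrillar collagen chain, had 2001, 22815, 12663 and 12260 counts, 1.01-fold lower on day 9 than on day 6 (0.988 to 1.04). Col3a1 was 1.24-fold lower (1.21 to 1.27), and Sparc, a collagen-binding matrix protein, 1.13-fold lower (1.11 to 1.15). The collagens and Sparc thus stayed far above their day 0 counts in both libraries. Lum, lumican, was 2.74-fold higher (2.39 to 3.15) on 287 and 772 counts. Its main tag held 133 of the day 6 copies and 661 of the day 9 copies, so the difference lay in that tag. Fbn1, fibrillin 1, was 2.94-fold lower (2.15 to 4.13) on 157 and 52. Vcan, versican, was 2.06-fold lower (1.63 to 2.64). Mgp, matrix Gla protein, had 274, 477, 112 and 228 counts and was 2.07-fold higher (1.65 to 2.63). Of 14 remodelling genes, 4 were higher, among them Mmp3, the membrane protease Mmp14 and Adamts1, which cleaves proteoglycans. Mmp14 had 73, 40, 11 and 57 counts and was 5.10-fold higher (2.74 to 11.2). Adamts1 was 4.35-fold higher (3.13 to 6.26) on 43 and 185. The remodelling median was below 0 (log2 -0.13), so the 4 were not typical of that list.

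Markers of immune cells and vessels differed gene by gene. Of 14 macrophage genes, 3 were higher and 1 lower (median log2 0.16). Mrc1, the mannose receptor, had 45, 94, 46 and 108 counts and was 2.38-fold higher (1.68 to 3.46). Lgmn, legumain, had 39, 64, 11 and 61 counts and was 5.45-fold higher (2.95 to 11.9), and Arg1 was the last. Msr1, a scavenger receptor, was 2.14-fold lower (1.38 to 3.48). The defining markers Cd68 and Cd163 had 161 and 86, and 110 and 76, counts on days 6 and 9, and passed in neither direction. T cell markers were scarce, with 0 and 8 counts of Cd3e and 3 and 13 of Cd2. Of 12 endothelial genes, 3 were lower and 0 higher, although the median was above 0 (log2 0.12): the TGF-beta co-receptor Eng (2.21-fold, 1.74 to 2.86), the lymphatic receptor Lyve1 (2.18-fold, 1.82 to 2.63) and the clotting factor carrier Vwf (2.12-fold, 1.60 to 2.84). Hbb, beta-globin, had 35, 1510, 104 and 579 counts and was 5.65-fold higher (4.60 to 7.06), and its count differed among all 4 libraries.

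Antigen presentation genes gave 3 higher and 0 lower of 6 (median log2 0.71), all of MHC class II. RT1-Db1 had 253, 283, 176 and 534 counts and was 3.09-fold higher (2.60 to 3.69), and RT1-Ba had 222, 324, 174 and 463 and was 2.71-fold higher (2.27 to 3.25). RT1-Da had 46, 40, 16 and 51 counts and was 3.18-fold higher (1.82 to 6.11). For RT1-Ba and RT1-Db1, which are polymorphic, the tags differed between the libraries. RT1-Ba had 2 main tags from different CATG sites, which are shown because only the sum was compared.
RT1-Ba at the first site: CATGcccttggaattctcctc
RT1-Ba at the third site: CATGtcagagctgacagagac
The first had 0, 0, 171 and 216 copies on days 0, 3, 6 and 9, and the other 222, 324, 3 and 244. Day 6 therefore held almost only the first and day 9 both. On the first tag alone the day 9 log2 ratio was 0.36, so the call rested on the other tag. RT1-Db1 had a pair of tags 1 base apart (C15T) with 0 and 112 copies on day 6 and 117 and 182 on day 9.

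Such shifts between tags 1 base apart were counted over all genes. A pair was counted if either tag held no more than 5% of its copies on 1 day and 20% or more on the other, given 30 copies or more on both days. Of the 5127 genes with 50 counts, 30 had such a pair, and 6 of the 30 passed the size rule. Hspb1, a small heat shock protein, and Mgp are shown because their main tag differed between days 6 and 9, the varying base and CATG in capitals.
Hspb1 first tag: CATGgctacatctctcgAtgc
Hspb1 second tag: CATGgctacatctctcgGtgc
Mgp first tag: CATGatctCctgtctggctgg
Mgp second tag: CATGatctTctgtctggctgg
The first tag of Hspb1 had 0, 22, 21 and 171 copies and the second 59, 16, 26 and 0 (A18G), and its gene count was 3.43-fold higher on day 9 (2.57 to 4.68) with both summed. For Mgp the first had 140, 260, 112 and 103 copies and the second 134, 217, 0 and 125 (C9T), so the gene was higher on day 9 through the second tag alone. In a few of the 30 genes, days 6 and 9 held opposite forms. Pcmtd2 had 0 and 188 copies of its first and second tags on day 6, and 150 and 0 on day 9. Eid1 had 199 and 0 on day 6, and 0 and 185 on day 9. Labels do not say whether the libraries came from the same animals, and this was not tested. Without the 30 genes and Nkain3, 510 genes were higher and 222 lower, an alternative chosen after the data were seen.

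**Figure D4:**
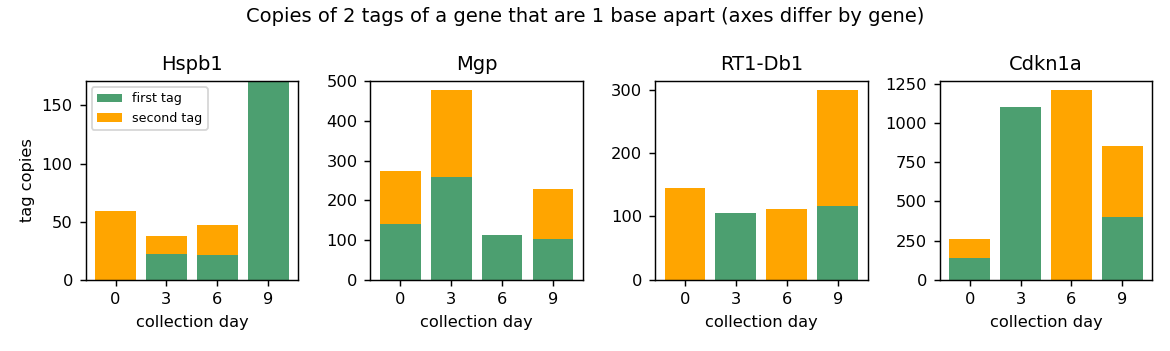
Copies of both tags of a pair 1 base apart in the 4 libraries for Hspb1, Mgp, RT1-Db1 and Cdkn1a (stacked bars from 0, 1 library a day, axes differ by gene; the first tag is green and the second orange). Day 6 holds only 1 of the forms for Mgp, RT1-Db1 and Cdkn1a, and day 9 holds both.

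Many of the higher genes stood low on day 6 alone. Each gene past the rule was placed by which library stood at least 2-fold beyond every other one. Among the 515 higher genes, day 9 stood apart in 87, day 6 stood apart in 186, both did in 13 and neither in 229. Among the 224 lower genes these counts were 64, 13, 1 and 146. A low day 6 library was thus more frequent among the higher genes than a high day 9 library, and the genes lower on day 9 were more often low on day 9 than high on day 6.

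**Figure D5:**
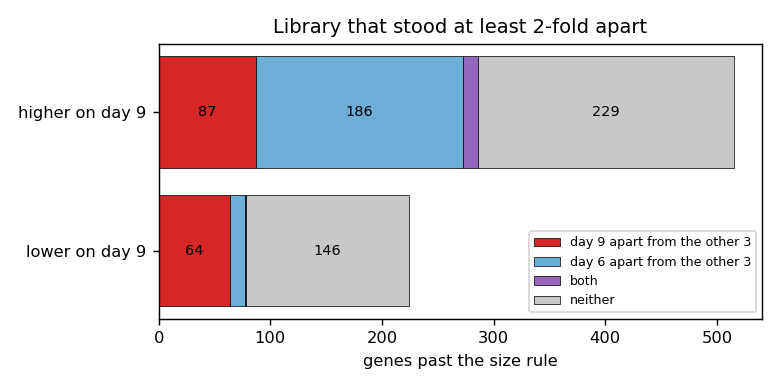
Number of genes past the size rule, higher (515) or lower (224) on day 9 than on day 6, by the library that stood at least 2-fold apart from the other 3. Day 6 alone accounts for 186 of the higher genes and day 9 alone for 87.

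Skeletal muscle transcripts were the plainest case. Of 39 listed muscle genes 27 had 50 counts, a floor that most reached through day 9 alone, and all 27 were higher on day 9, against 10.0% of all genes. The summed counts of the list were 14675, 25855, 817 and 27682 on days 0, 3, 6 and 9. Day 6 was the low library and the other 3 held muscle RNA. Muscle lies under the footpad skin, and its part in the sampled tissue was not recorded in the labels. Myl1, a fast myosin light chain, had 2021, 5394, 0 and 4705 counts, at least 1599-fold higher on day 9 than on day 6. Its main tag, shown because it held 98.7% of the day 9 copies, was seen 1 time in the day 6 library when tags seen once are included.
Myl1: CATGtaccacctttatgatct
Myh2, Tnnt1 and Myot, of the contractile apparatus, had 1613, 954 and 907 counts on day 9 and none on day 6, and Atp2a1, the calcium pump of fast muscle, had 966 and 3. In all, 47 genes past the rule were not listed on day 6, and 11 of these had a tag seen singly there. Without the muscle list and the genes whose day 6 count was 4-fold or more below every other library, 437 genes were higher and 224 lower.

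Several gland transcripts were also low on day 6. Of 7 sweat gland and simple epithelium genes, 5 were higher on day 9: Krt19, a simple epithelial keratin, with 84, 264, 5 and 85 counts (15.8-fold, 7.14 to 54.7), the sodium pump subunit Atp1b1, with 165, 236, 9 and 167 (18.0-fold, 9.73 to 42.1), Slc12a2 (3.36-fold, 2.50 to 4.63), the water channel Aqp5 (3.13-fold, 2.32 to 4.34) and Ca2. Except for Ca2, which stood out on day 9, these had day 9 counts near those of day 0. Adipocyte genes were mixed: of 9 with 50 counts, 3 were higher, led by Car3, shared by fat and muscle, with 4534, 8149, 251 and 9758 counts (39.6-fold, 35.0 to 45.1). Adipoq, adiponectin, had 41, 448, 35 and 165 counts (4.75-fold, 3.32 to 7.14). The other 6 passed in neither direction, among them Plin2, with 120 and 121 counts on days 6 and 9, and the median log2 ratio of the list was 0.74. The part of tissue composition in the other differences was not tested.

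Ratios of genes of energy supply and the cytoskeleton leaned towards day 9 in small steps. Of 44 nuclear respiratory genes, 6 were higher (13.6%, near the 10.0% over all genes) and 0 lower. Of 48 ratios, 40 were above 1 (median log2 0.39). Atp5i, a subunit of ATP synthase, had 313, 297, 90 and 695 counts and was 7.84-fold higher (6.31 to 9.92), and Uqcrfs1, the Rieske protein, had 230, 151, 43 and 184 (4.32-fold, 3.12 to 6.23). Of 16 glycolysis and hypoxia genes, 4 were higher and 0 lower, among them Ndrg1 (4.24-fold, 3.21 to 5.73) and Tpi1 (2.58-fold, 2.32 to 2.87). Another was Hif1a, an oxygen-regulated transcription factor subunit, with 156, 179, 156 and 358 counts (2.34-fold, 1.93 to 2.84). Several of the respiratory genes were low on day 6 alone, whereas Hif1a was flat until day 9. Of 31 actin genes, 5 were higher (16.1%, against 10.0% over all genes) and 0 lower, and 25 of 32 ratios were above 1 (median log2 0.34). Actb, beta-actin, had 3848, 1774, 876 and 2316 counts and was 2.69-fold higher (2.49 to 2.92), and Gapdh had 2515, 2148, 1537 and 2377, a ratio of 1.58 (1.48 to 1.68), so both varied among the libraries.

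Redox genes gave 3 higher and 1 lower of 20 (median log2 -0.02). Slc7a11, the cystine importer, had 8, 12, 19 and 98 counts and was 5.15-fold higher (3.19 to 9.11), and Hmox1, heme oxygenase 1, had 26, 60, 28 and 107 and was 3.85-fold higher (2.55 to 6.14). Gsta3, a glutathione transferase, had 175, 1012, 803 and 355 counts and was 2.22-fold lower (1.96 to 2.52). The ribosomal protein list had 1 higher and 1 lower of 33 but a median log2 of -0.46, with 27 of 39 ratios below 1, and its summed share was 6.13% of gene counts on day 6 (6.10 to 6.16) and 4.85% on day 9 (4.82 to 4.88). Of 27 proteasome genes 1 was higher, of 30 translation factors 3 were higher and 1 lower, and of 24 chaperone genes 2 were higher and 1 lower, all with medians between -0.24 and 0.08. Interferon response genes had 0 higher and 0 lower of 3 with enough counts, too few to describe.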

How the data were processed

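Digital gene expression tags were compared between 1 library of day 6 and 1 of day 9 footpad skin. In the deposited gene tables the authors summed tag copies into whole-number counts, leaving out tags seen once, and a column headed TPM held CPM over all tags seen at least 2 times. In each deposited tag list, counts are copies of each tag. The submitters' processing notes name the assembly Rnor_6.0; the aligner is not given in the sources used here.

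Counts were joined by gene identifier and scaled by TMM factors (edgeR 4.0.16), 0.989 on day 6 and 0.978 on day 9. Ratios used a prior count of 0.5 and exact 95% Clopper-Pearson intervals; a library at 0 took a floor of 3 counts. The size rule was 2-fold, 50 counts and an interval excluding 1. In simulated counts for day 9 against day 6, it called 50 of 50 genes at 2.5-fold and 4 of 16864 unchanged ones. The simulation held counting error alone, with no spread between animals, tissue pieces or PCR copies. Only genes with an expected count of at least 100 were changed, and many unchanged ones were too scarce to reach 50 counts. It therefore gives no rate of false calls for real libraries.

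Of 1302 names in 46 lists, 1029 were found; a median covers members averaging 10 counts or more. Members and lists were chosen with earlier results of these data known. Named genes were the 15 highest and 15 lowest with at least 100 counts (10 more among muscle and day 6-low genes), up to 8 members of each list past the rule, and a standing set. Cxcr2, Csf3r, Ngp, Mpo, Elane, Cd3e and Cd2 came from the marker sets. Cxcl1, Fos, Egr1, Mmp9, Lcn2, Trem1, Il1r2, Plin2, Cstb, Il1rn, Klk6 and Ddx56 were named after their values were seen. Some genes that these rules name are not reported here. Tag pairs were chosen after their copies were seen. Promoters are from RefSeq (GRCr8), and were matched for 11 of 16 stress list genes, 12 of 14 cytokine list genes, 28 of 33 replication genes and 18 of 24 mitosis genes.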

Additional observations from a re-analysis of the deposited data

Results flagged for a closer look

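Tags that stood under no gene were outside the comparisons above. Of 2794 such tags with at least 50 copies on day 6 or day 9, 366 were higher on day 9 by the same size rule (13.1%) and 267 lower (9.56%), and in 125 of the 366 day 6 was at least 2-fold below each other library. Leaving aside those low on day 6, the most abundant higher tag had 48, 753, 4967 and 28292 copies on days 0, 3, 6 and 9, 5.81-fold higher on day 9 (5.63 to 5.99), and is shown because of its size.
Tag in no gene: CATGgtgatagtctaataaag
No gene was assigned to it here.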

How the results depend on the processing

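The counts of 515 higher and 224 lower genes moved most with the count floor and the fold: 1207 and 600 with a floor of 10 counts, 165 and 53 with 200, 1374 and 724 with none, 247 and 40 at 3-fold, and 270 and 51 where the interval itself lay past 2-fold. The share of higher among called genes was 69.7%, and 86.1% and 84.1% under the last pair. Under other scalings, a prior count of 5, the authors' normalized value plus 1 or the most abundant tag alone, both counts stayed within 1.5 times. Among list medians, the interferon list turned to 0.10 with all members, and these moved: skeletal muscle, 7.95, to 5.15 with a prior of 5, 5.50 on the authors' value, 8.97 with a mean of 50 counts and 6.92 with all members; sweat gland, 1.09, to 1.70, 1.86 and 1.77 with a mean of 50 counts, all members and the mean; keratinocyte cytokines, 0.89, to 1.84 with all members and 2.04 with the mean. By the mean, the wound migration list was 1.56, matrix remodelling 0.51 and adipocyte 1.57. Mgp turned to a log2 ratio of -0.09 on its most abundant tag alone. The cause was not tested. No paired analysis was possible because each day had 1 library. Differences between animals cannot be told apart from differences between days.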

Other observations

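Rows with a UniGene identifier alone made up 72 of the 515 genes higher on day 9 (14.0%) and 39 of the 224 lower (17.4%). The number of such rows that reached the count floor is not given here, so these counts cannot be set against the shares over all genes. A pair described as stefins followed Stfa3: gnl|UG|Rn#S55429217 had 86, 96, 97 and 5142 counts on days 0, 3, 6 and 9, and gnl|UG|Rn#S22393586 had 0, 2, 2 and 201. On the lower side, gnl|UG|Rn#S13915792 had 0, 180, 120 and 0 counts and gnl|UG|Rn#S56142801 had 48, 132, 323 and 54.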
